A study of Mus musculus with 14 samples.

Results

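The interaction between seizures and chemogenetic silencing was measured in sorted mouse hippocampal cells that the labels describe as adult-born. It is the seizure difference in DREADD cells (DREADD Pilo minus DREADD Sham) less the seizure difference in CAG-GFP cells (CAG-GFP Pilo minus CAG-GFP Sham), on the log2 scale. The contrast used all 14 libraries of the series, and 18676 of the 43346 gene identifiers in the count table had enough counts to be tested. A positive value means that the seizure difference was more positive in DREADD cells than in CAG-GFP cells, and a negative value means the reverse. The libraries came from 800 to 1000 live GFP-positive cells each, sorted at day 14 from the hippocampus of C57BL/6 mice labelled as wild type and described as adult-born granule cells. Libraries were made from polyadenylated RNA with SMART-Seq v4, which amplifies full-length cDNA from very few cells. CAG-GFP Sham (3 libraries) was labelled as CAG-GFP cells with CNO and no seizures, and CAG-GFP Pilo (4 libraries) as CAG-GFP cells with CNO and seizures. DREADD Sham (4 libraries) was labelled as DREADD cells with CNO and no seizures, and DREADD Pilo (3 libraries) as DREADD cells with CNO, seizures and silencing. Seizures were set off with pilocarpine at 300 mg/kg, and clozapine-N-oxide (CNO), the drug that activates a DREADD, stands in the titles of all 4 groups. DREADD Sham cells therefore also carried the receptor together with CNO, so the interaction does not contrast seizures with and without the drug. CAG is a promoter active in nearly every cell type, so GFP driven by it does not by itself mark one kind of cell. The labels do not state whether each library was from its own animal, so the errors and p-values measure the spread between these libraries, which may be technical.

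As background, the dentate gyrus adds granule neurons throughout adult life from stem cells that resemble astrocytes, through dividing progenitors and migrating neuroblasts. Seizures raise the activity of these cells and are known to disturb how many are born, where they migrate and how they connect. The inhibitory DREADD hM4Di is a mutated muscarinic receptor that couples to Gi proteins, opens GIRK potassium channels and lowers transmitter release when CNO binds it. The interaction asks whether the seizure difference of a gene depends on the cell preparation, and a gene with the same seizure difference in both would give 0.

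The libraries held 10613291 to 38614639 counts and between 9372 and 20863 detected genes. They fell into 2 sets by the share of counts on pseudogenes, 0.1165% to 0.2004% in set 1 and 4.33% to 8.12% in set 2, and the library names in the labels are styled differently between the sets. All of CAG-GFP Sham was in set 1 with CAG-GFP Pilo 3 and 4 as well as DREADD Sham 1 and 2, and set 2 held the other 7. Neither set contained both CAG-GFP Sham and DREADD Pilo, so the whole interaction could not be computed within a set. It was therefore also taken from the set 1 libraries of CAG-GFP Pilo against CAG-GFP Sham and the set 2 libraries of DREADD Pilo against DREADD Sham, called the within-set value here. CAG-GFP Pilo 4 had the fewest detected genes, and DREADD Pilo 3 had 25.8% of its counts on mitochondrial genes against 2.06% to 13.9% elsewhere. Levels are given in CPM, which divides the counts by the TMM-adjusted size of the library, errors of log2 values are standard errors, and ± after a mean is an SD. Of the markers of the labelled cell type, Dcx, a microtubule protein of migrating neuroblasts, averaged 2.75 CPM in CAG-GFP Sham, 31.7 CPM in CAG-GFP Pilo, 115 CPM in DREADD Sham and 40.8 CPM in DREADD Pilo. Prox1, the transcription factor of granule cells, averaged 11 CPM in CAG-GFP Sham, 123 CPM in CAG-GFP Pilo, 98.6 CPM in DREADD Sham and 44.6 CPM in DREADD Pilo. Markers of other cells were also present: the 14 astrocyte genes summed to 24353 to 25576 CPM in CAG-GFP Sham, 556 to 4927 in CAG-GFP Pilo, 1519 to 4077 in DREADD Sham and 970.4 to 2644 in DREADD Pilo. In such bulk samples fewer cells of a type and less RNA per cell cannot be told apart.

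No gene passed the test of the interaction. Of 18676 genes, 0 (0%) had a Benjamini-Hochberg adjusted p under 0.05 in edgeR's quasi-likelihood test, and the smallest adjusted p was 0.194. At an unadjusted p under 0.05 there were 2191 genes (11.7%), 809 with a positive (4.33%) and 1382 with a negative interaction (7.4%). Other tools gave other counts on the same libraries: DESeq2 called 1569 genes past an adjusted p of 0.05 and limma's voom with sample weights called 185, of which 24 and 19 were among the 24 leading genes described below. With library set as a covariate edgeR called 11 genes, and with the within-set differences it called 4. The direction of the smaller p-values also depended on the setting, with 63.1% negative among the genes at an unadjusted p under 0.05 in edgeR, 39.9% with voom, 36.1% with the set covariate, 28.7% within sets, 52.4% without CAG-GFP Pilo 3, 49.8% without DREADD Pilo 2 and 22.5% with the 3 CAG-GFP Sham libraries summed into 1. The median interaction over all genes tested was -0.43, or -0.34 with genes empty in a group set to 3 counts, and the values of gene lists below are read against it. RLE scaling gave a median of -0.41 and upper-quartile scaling -0.30. The sign was not stable, as the median was 0.34 with voom, 0.17 with the set covariate and 0.56 within sets. Where a list is given relative to all genes under a setting, the median of that setting is used.

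The 2 seizure differences that make up the interaction were of unequal size. Across all genes tested the log2 seizure difference had an SD of 3.53 in CAG-GFP cells and 2.26 in DREADD cells, and 63.8% of genes had the larger absolute difference in CAG-GFP cells. These values, and the correlations below, include 3058 genes with 0 counts in a group, whose fitted differences depend on the small prior count added in the fit. Among the genes at an unadjusted p under 0.05 that share was 76.7%, and 77.4% of them had seizure differences of opposite sign, against 49.7% of all genes. Both shares describe genes that the same contrast selected. Across the 18676 genes the seizure differences of the 2 preparations, which share no library, had a Pearson r of 0.06 and a Spearman rho of 0.03, given as a description since genes are not independent replicates. The libraries of the 2 CAG-GFP groups did not overlap for 3503 genes (18.8%), and those of the 2 DREADD groups did not overlap for 1235 genes (6.61%). Replicates were most alike in CAG-GFP Sham, where log2 CPM correlated at 0.863 to 0.868 between libraries. The range was 0.517 to 0.738 in CAG-GFP Pilo, 0.501 to 0.796 in DREADD Sham and 0.594 to 0.773 in DREADD Pilo. The part of this closeness in the non-overlap and the p-values was not tested.

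**Figure D1:**
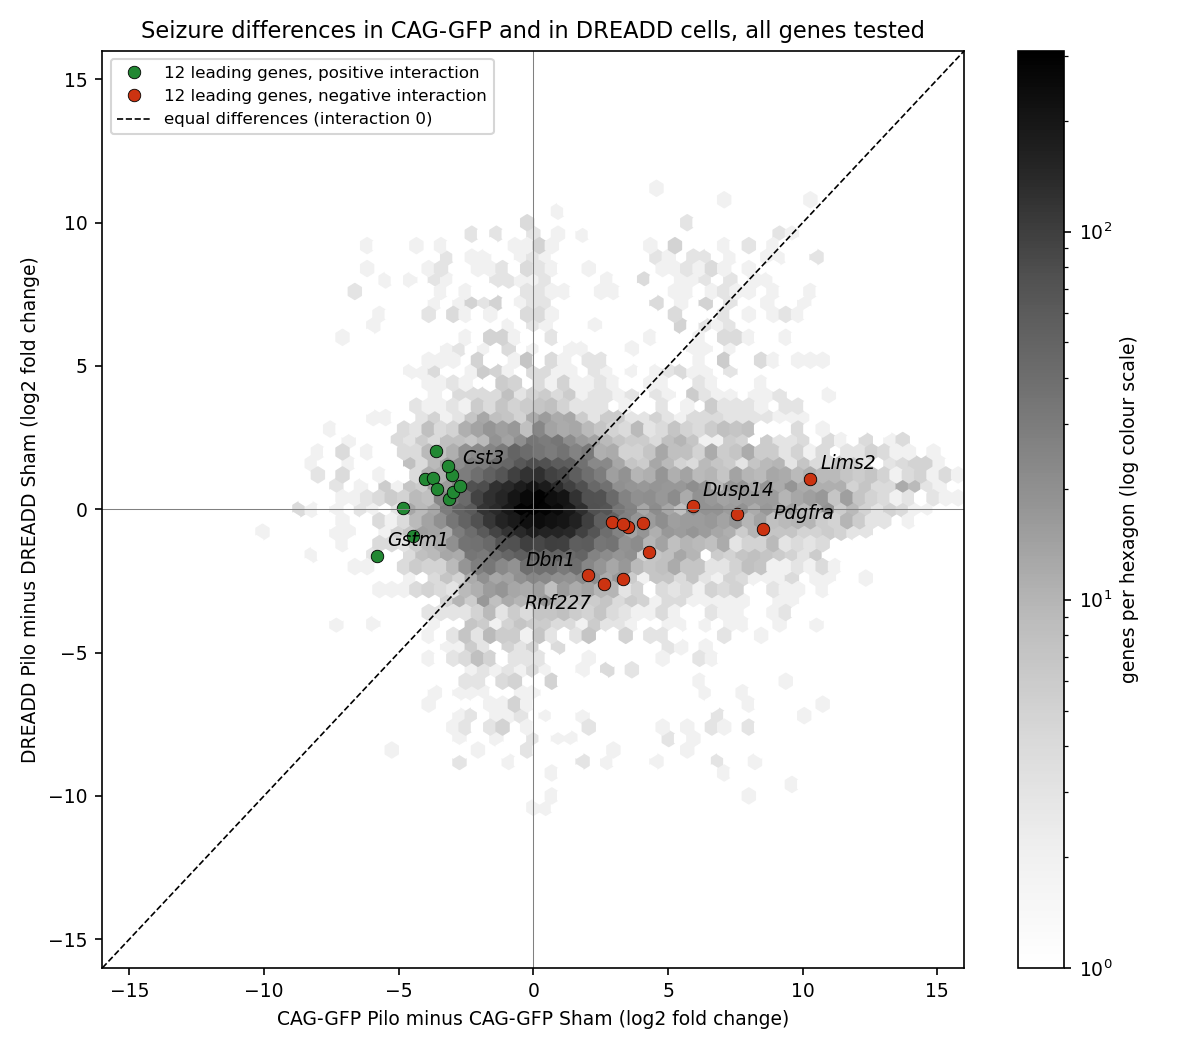
Log2 seizure difference (Pilo minus Sham) in DREADD cells on the vertical axis against that in CAG-GFP cells on the horizontal axis, with shading for the number of genes and points for the 24 leading genes. The 12 leading positive genes lie at negative CAG-GFP values and the 12 leading negative genes at positive ones, and 20 of the 24 have differences of opposite sign.

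The 24 leading genes were the 12 positive and 12 negative genes of smallest interaction p among those with more than 3 counts in every group. The contrast itself chose them, so their values are a description. All 24 had CAG-GFP Pilo libraries entirely above or below the CAG-GFP Sham libraries, against 18.8% of all genes. In DREADD cells 4 of the 24 had Pilo libraries entirely above or below Sham, against 6.61% of all genes. In 22 of the 24 the seizure difference was larger in CAG-GFP cells. CAG-GFP Sham had the highest mean of the 4 groups in 12 of the 12 positive genes and the lowest in 10 of the 12 negative genes. The 2 sham groups also stood further apart than the 2 seizure groups in 22 of the 24. For the positive genes CAG-GFP Sham was 4.90-fold to 41.0-fold above DREADD Sham, whereas DREADD Pilo was between 0.484-fold and 4.49-fold of CAG-GFP Pilo. For the negative genes DREADD Sham was 3.37-fold to 671-fold above CAG-GFP Sham, whereas CAG-GFP Pilo was 0.745-fold to 11.2-fold of DREADD Pilo. The 3 CAG-GFP Sham libraries thus stood apart from the other 11 in most of these genes, beside their astrocyte marker sum, and the part of cell composition in the interaction was not tested.

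**Figure D2:**
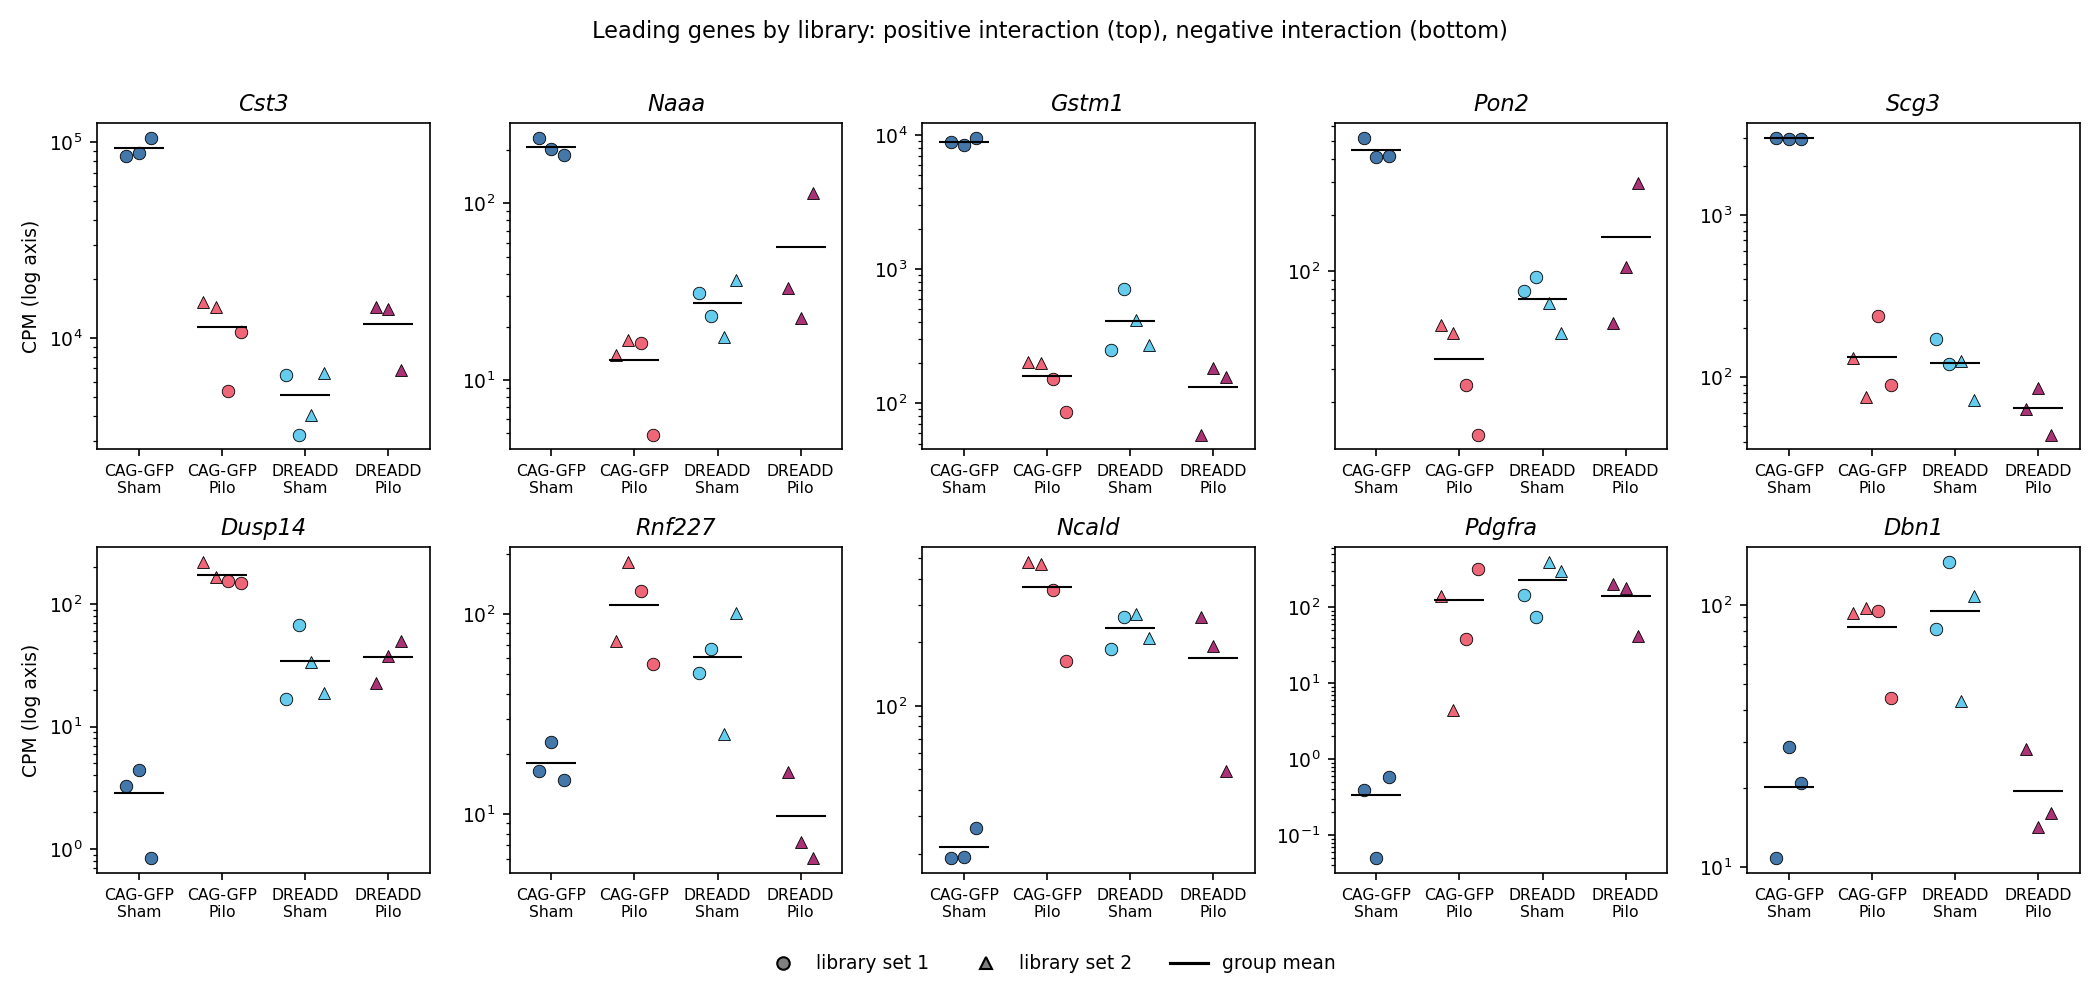
Level of the 5 highest-ranked positive and 5 highest-ranked negative genes in each of the 14 libraries, in CPM on a log axis, with circles for library set 1, triangles for set 2 and a line at each group mean. The CAG-GFP Sham points lie above every other library in the 5 positive genes and below the CAG-GFP Pilo points in the 5 negative ones.

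Cst3 had the smallest interaction p among the positive genes. It encodes cystatin C, a secreted inhibitor of cysteine proteases such as the cathepsins, and lies on GRCm38 at chr2:148871722-148875692, minus strand (ENSMUSG00000027447.6). Cst3 stood at 85347, 88488 and 105120 CPM in the CAG-GFP Sham libraries, 15271, 14363, 5350.5 and 10728 in CAG-GFP Pilo, 6483, 3219, 4065 and 6609 in DREADD Sham and 14465, 14069 and 6911 in DREADD Pilo. The seizure libraries were thus all below the sham libraries in CAG-GFP cells and all above them in DREADD cells, the latter by a narrow gap. The seizure difference was -3.02 ± 0.51 in CAG-GFP cells and 1.21 ± 0.49 in DREADD cells. The interaction was 4.24 ± 0.70 (edgeR adjusted p = 0.194), and 4.83 ± 0.82 within sets. Without DREADD Pilo 3 it was 4.53 ± 0.54 with an edgeR adjusted p of 0.0182, the only gene called when single libraries were left out, and over all 27 alternatives the adjusted p ran from 4.72e-07 in DESeq2 to 0.9999 with the CAG-GFP Sham libraries summed.

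The next positive genes had a similar order of groups. Naaa encodes a lysosomal amidase that hydrolyses N-acylethanolamines (chr5:92257659-92278170, minus strand, ENSMUSG00000029413.10). Naaa stood at 234, 204 and 188 CPM in CAG-GFP Sham, 13.8, 16.9, 16.1 and 4.92 in CAG-GFP Pilo, 31.2, 23, 17.6 and 37 in DREADD Sham and 33.1, 22.4 and 114 in DREADD Pilo. The DREADD groups overlapped, and DREADD Pilo 3 was the highest of their libraries. Its interaction was 5.07 ± 0.91 (edgeR adjusted p = 0.194), 5.45 ± 1.30 within sets and 4.06 without DREADD Pilo 3. Gstm1 encodes a mu-class glutathione S-transferase that conjugates glutathione to electrophiles (chr3:108012255-108017973, minus strand, ENSMUSG00000058135.8). Gstm1 stood at 8919, 8367 and 9495 CPM in CAG-GFP Sham, 203, 199, 152 and 86 in CAG-GFP Pilo, 248, 707, 419.6 and 272 in DREADD Sham and 58.4, 183 and 157 in DREADD Pilo. Here the seizure libraries were below the sham libraries in both preparations, so the interaction of 4.17 ± 0.75 (edgeR adjusted p = 0.194) came from a larger seizure difference in CAG-GFP cells, -5.80 against -1.63. It was 4.95 ± 0.88 within sets. Gstm1 has close relatives in its family, and reads shared with them make its counts uncertain.

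Pon2 encodes paraoxonase 2, an intracellular lactonase with antioxidant activity (chr6:5264147-5298455, minus strand, ENSMUSG00000032667.13). Pon2 stood at 519, 411 and 414 CPM in CAG-GFP Sham, 51.3, 46.4, 24.6 and 13.3 in CAG-GFP Pilo, 78.2, 93.3, 67.6 and 46.5 in DREADD Sham and 52.5, 106 and 299 in DREADD Pilo. DREADD Pilo spread from the DREADD Sham level to above it, again with DREADD Pilo 3 highest, and the interaction was 4.82 ± 0.89 (edgeR adjusted p = 0.217), 6.09 ± 1.13 within sets and 3.90 without DREADD Pilo 3. Scg3 encodes secretogranin III, a granin of secretory granules (chr9:75643189-75684056, minus strand, ENSMUSG00000032181.6). Scg3 stood at 2982, 2958 and 2953 CPM in CAG-GFP Sham, 131, 75.3, 238 and 88.9 in CAG-GFP Pilo, 173, 119.9, 126 and 72.4 in DREADD Sham and 63.3, 85.9 and 44.3 in DREADD Pilo. Only CAG-GFP Sham stood apart, the other 11 libraries lying between 44.3 and 238 CPM. The interaction of Scg3 was 3.55 ± 0.71 (edgeR adjusted p = 0.219) and passed the threshold with library set as a covariate, at 3.61 ± 0.58 with an adjusted p of 0.047. Within sets it was 3.64 ± 0.83.

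The other 7 leading positive genes also had their highest mean in CAG-GFP Sham, with interactions between 3.51 and 5.62 and edgeR adjusted p-values of 0.219. Mt1, a metallothionein that binds zinc and copper (chr8:94179082-94180327, plus strand), stood at 15997 to 19359 CPM in CAG-GFP Sham and at 215 to 1012, 188 to 686 and 99.2 to 620.3 in the seizure group of the same cells and the DREADD groups without and with seizures. Its seizure difference was -4.84 ± 0.77 in CAG-GFP cells and 0.04 ± 0.69 in DREADD cells, so the interaction of 4.88 ± 0.99 was almost wholly the CAG-GFP difference. Mgst1, the microsomal glutathione S-transferase, had 5.62 ± 1.18, and its DREADD Pilo mean of 163 ± 218 CPM rested on DREADD Pilo 3; without that library the interaction was 3.53. S100a1, an EF-hand calcium-binding protein, had 3.53 ± 0.74, and Ifitm2, an interferon-inducible membrane protein, had 4.30 ± 0.92. Tmem47, which encodes a small membrane protein, had 4.69 ± 1.01. Mamdc4 and Phpt1, a protein histidine phosphatase, had 3.51 ± 0.72 and 3.59 ± 0.74, but the exons of these neighbours overlap on 1 strand by 163 bases and their levels were close in each library, so they may not be separate observations. Mt1 and Mt2, and Ifitm2 and Ifitm3, are also close in sequence. Mgst1 was not alone in its dependence on DREADD Pilo 3, without which the interactions of the others were smaller too. They were then 4.63 for Mt1, 2.94 for S100a1, 3.27 for Ifitm2, 3.83 for Tmem47, 2.98 for Mamdc4 and 3.00 for Phpt1.

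Promoter sequences are shown for the leading genes Cst3 and Mt1 on the positive side and Dusp14 and Pdgfra on the negative side, as examples from each side, chosen after their values were seen. They are the RefSeq windows of GRCm38.p6 from 250 bases before to 50 after the start, and capitals mark the core of the metal response element, the site of the zinc-sensing factor MTF1, searched as TGCACNC or TGCGCNC on both strands with overlapping matches counted separately.
Cst3 (chr2:148875463-148875762, minus strand): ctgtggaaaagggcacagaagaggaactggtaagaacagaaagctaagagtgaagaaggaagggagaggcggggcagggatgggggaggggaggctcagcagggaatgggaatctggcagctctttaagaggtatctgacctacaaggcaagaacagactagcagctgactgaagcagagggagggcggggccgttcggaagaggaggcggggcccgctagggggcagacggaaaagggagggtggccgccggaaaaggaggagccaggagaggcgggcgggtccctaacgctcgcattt
Mt1 (chr8:94178839-94179138, plus strand): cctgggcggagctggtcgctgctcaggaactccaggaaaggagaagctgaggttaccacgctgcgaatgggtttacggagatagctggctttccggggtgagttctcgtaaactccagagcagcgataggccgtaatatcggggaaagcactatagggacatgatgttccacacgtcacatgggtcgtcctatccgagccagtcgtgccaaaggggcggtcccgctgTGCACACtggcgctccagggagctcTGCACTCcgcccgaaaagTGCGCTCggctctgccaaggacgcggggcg
Dusp14 (chr11:84068308-84068607, minus strand): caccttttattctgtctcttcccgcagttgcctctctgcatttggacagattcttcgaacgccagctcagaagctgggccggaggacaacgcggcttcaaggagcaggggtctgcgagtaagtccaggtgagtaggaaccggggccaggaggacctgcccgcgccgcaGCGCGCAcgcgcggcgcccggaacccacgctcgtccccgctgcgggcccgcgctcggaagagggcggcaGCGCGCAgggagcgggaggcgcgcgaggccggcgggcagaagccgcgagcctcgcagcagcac
Pdgfra (chr5:75152001-75152300, plus strand): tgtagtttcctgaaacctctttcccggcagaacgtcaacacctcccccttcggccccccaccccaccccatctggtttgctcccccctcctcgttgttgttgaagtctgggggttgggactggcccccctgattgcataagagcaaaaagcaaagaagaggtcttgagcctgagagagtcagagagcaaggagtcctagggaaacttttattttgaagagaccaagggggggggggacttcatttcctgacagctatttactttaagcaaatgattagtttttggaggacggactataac
The Mt1 window held 3 matches and the Dusp14 window 2, while 25.7% of the 32851 windows held at least 1 and 1.97% held as many as Mt1. The cyclic AMP response element TGACGTCA, a palindrome bound by the activity-dependent factor CREB, was in 0 of the 18 leading genes that had a window, against 3.36% of 12286 tested genes and 1.79% of all windows. A match is a description of these letters, and its absence says nothing about the factor.

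The negative genes were led by Dusp14, a dual-specificity phosphatase that acts on MAP kinases (chr11:84048041-84069261, minus strand, ENSMUSG00000018648.11). Dusp14 stood at 3.28, 4.44 and 0.838 CPM in CAG-GFP Sham, 220.4, 165, 155 and 148 in CAG-GFP Pilo, 16.7, 66.8, 33.4 and 18.9 in DREADD Sham and 22.6, 37.6 and 49.7 in DREADD Pilo. CAG-GFP Pilo was above every other library, CAG-GFP Sham was below every other, and the 2 DREADD groups overlapped in between. The seizure difference was 5.91 ± 0.85 in CAG-GFP cells and 0.11 ± 0.65 in DREADD cells, and the interaction was -5.80 ± 1.03 (edgeR adjusted p = 0.194), or -5.12 ± 1.12 within sets.

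Rnf227 and Dbn1 differed in opposite directions with seizures in the 2 preparations, with no overlap in either. Rnf227 encodes a RING finger protein (chr11:69340461-69342641, plus strand, ENSMUSG00000043419.10). Rnf227 stood at 16.5, 22.9 and 14.8 CPM in CAG-GFP Sham, 73.7, 182, 129.8 and 56 in CAG-GFP Pilo, 50.6, 66.5, 25.1 and 101 in DREADD Sham and 16.3, 7.28 and 6.02 in DREADD Pilo. Its seizure differences were of nearly equal size, 2.61 ± 0.70 and -2.62 ± 0.70, and the interaction was -5.23 ± 0.99 (edgeR adjusted p = 0.217) and -4.95 ± 1.20 within sets. Dbn1 encodes drebrin, an actin-binding protein of dendritic spines and growth cones (chr13:55473429-55488111, minus strand, ENSMUSG00000034675.13). Dbn1 stood at 10.8, 28.9 and 21 CPM in CAG-GFP Sham, 93.6, 97.6, 95.3 and 44.2 in CAG-GFP Pilo, 81.6, 147, 43 and 109 in DREADD Sham and 28.2, 14.3 and 16.1 in DREADD Pilo. CAG-GFP Pilo and DREADD Sham covered overlapping high ranges, and CAG-GFP Sham and DREADD Pilo overlapping low ones. The interaction of Dbn1 was -4.31 ± 0.90 (edgeR adjusted p = 0.219), and -3.65 ± 1.11 within sets.

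Ncald encodes neurocalcin delta, a neuronal calcium sensor (chr15:37366175-37792570, minus strand, ENSMUSG00000051359.10). Ncald stood at 19, 19.2 and 26.4 CPM in CAG-GFP Sham, 480.1, 469, 353 and 163 in CAG-GFP Pilo, 185, 265, 271 and 210.5 in DREADD Sham and 263, 192 and 49.4 in DREADD Pilo. Only CAG-GFP Sham stood apart, and the interaction was -4.56 ± 0.87 (edgeR adjusted p = 0.217) and -4.01 ± 0.96 within sets. Pdgfra encodes the PDGF receptor alpha of oligodendrocyte precursors (chr5:75152292-75198215, plus strand, ENSMUSG00000029231.11). Pdgfra stood at 0.398, 0.0494 and 0.576 CPM in CAG-GFP Sham, 140.1, 4.42, 38.5 and 322 in CAG-GFP Pilo, 146, 74.2, 398 and 298 in DREADD Sham and 202, 182 and 41.5 in DREADD Pilo. The gene was nearly absent from CAG-GFP Sham alone and varied widely among the CAG-GFP Pilo libraries, and its interaction was -9.20 ± 1.84 (edgeR adjusted p = 0.219) and -10.13 ± 1.55 within sets. Ncald and Pdgfra share exonic bases with other annotated genes, and the strand setting of the counting is not given in the sources used here, so reads of such partners cannot be told apart.

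The other 7 leading negative genes had interactions between -9.22 and -3.35 and edgeR adjusted p-values of 0.219. Some are known from neurons: Reep2, which shapes the endoplasmic reticulum, had -4.11 ± 0.87, Sult4a1, a brain sulfotransferase, -5.75 ± 1.28, and Ctxn1, the neuronal membrane protein cortexin 1, -3.85 ± 0.88. Ppp2r5b, a regulatory subunit of protein phosphatase 2A, had -5.77 ± 1.27, and Alg2, a mannosyltransferase of N-glycosylation, had -3.35 ± 0.77. Ackr3, the scavenging receptor for the chemokine CXCL12, had -7.74 ± 1.73. It was at 0 to 0.592 CPM in CAG-GFP Sham and at 13.3 to 77.5, 8.89 to 156 and 35.6 to 119.8 in the seizure group of the same cells and the DREADD groups without and with seizures. Lims2, a LIM protein of focal adhesions, had -9.22 ± 1.99 and was at 0 to 0.367 CPM in CAG-GFP Sham, and 121 bases of its exons overlap Gpr17 on the other strand, a gene of the oligodendrocyte lineage. Sult4a1 and Ppp2r5b were lower in each DREADD Pilo mean than in DREADD Sham, at 8.77 ± 8.57 against 47.1 ± 21.4 CPM and 8.9 ± 0.573 against 24.7 ± 16 CPM, but their libraries overlapped.

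**Figure D3:**
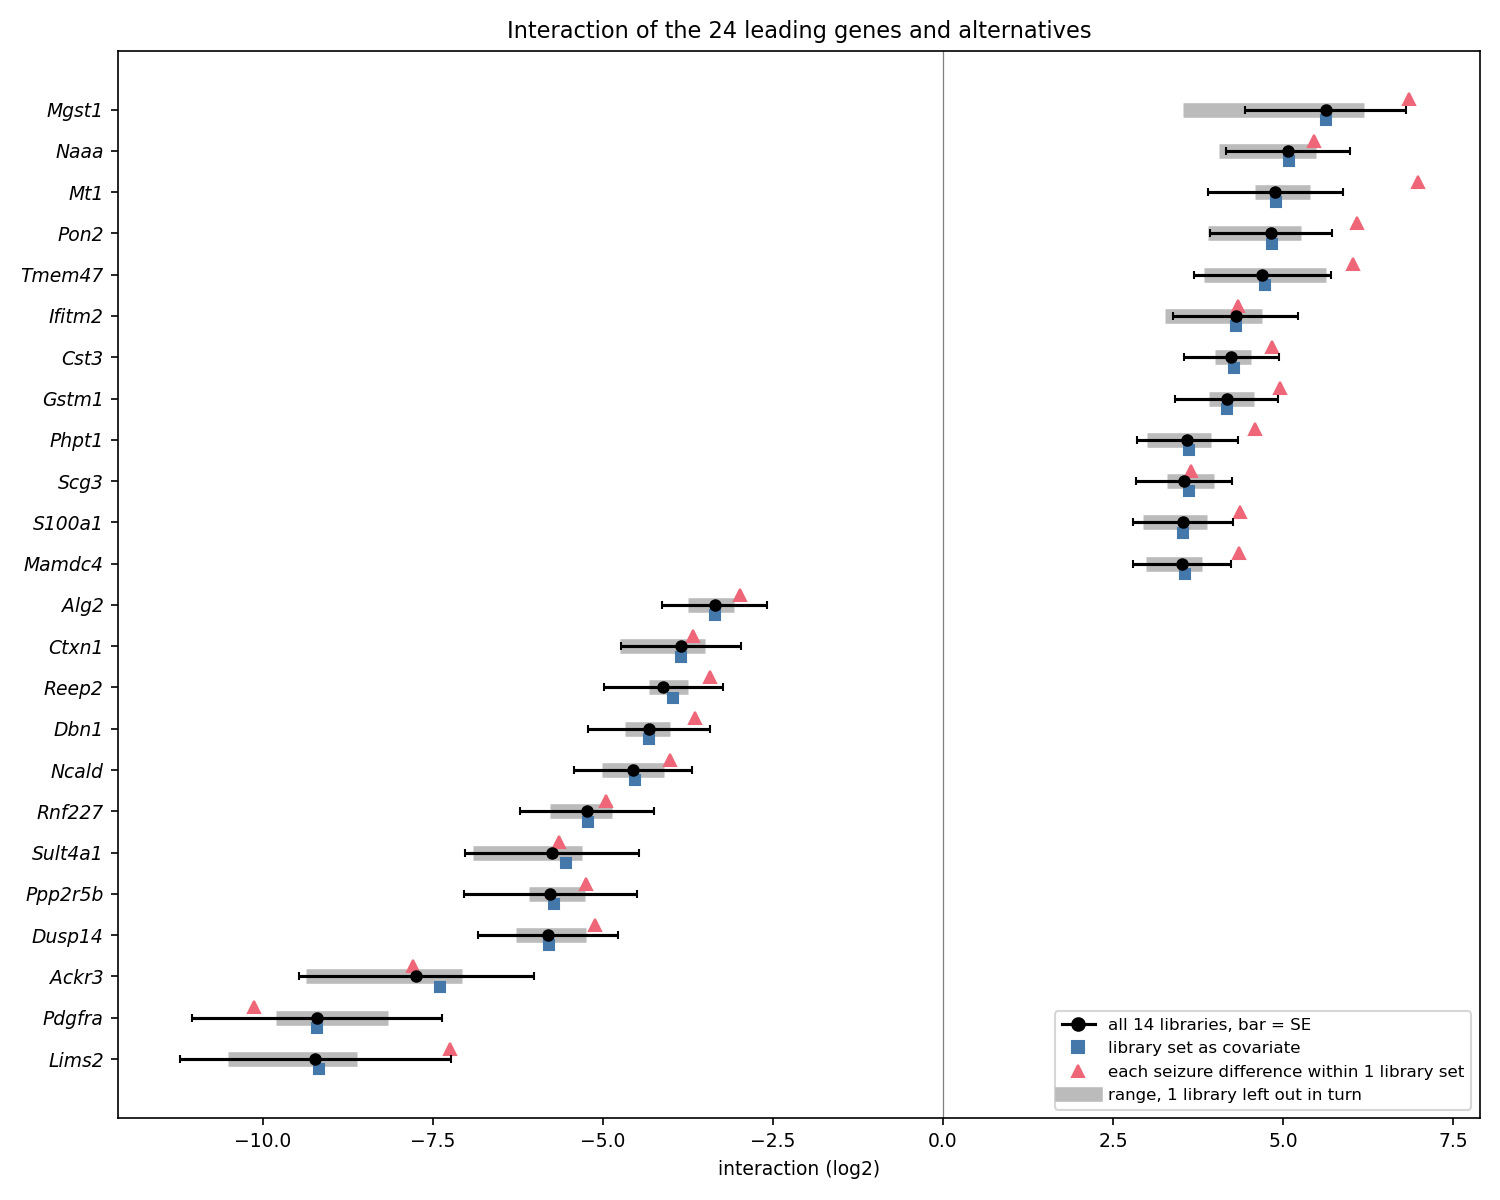
Interaction of the 24 leading genes on the log2 scale, with the estimate and its SE, the estimate with library set as a covariate, the within-set value and the range over the leave-one-library-out fits. Each gene keeps its sign in all of these, which was likely beforehand because the same contrast chose the genes for small p.

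A further 4 genes had interaction p-values as small but were empty or nearly empty in CAG-GFP Sham. Neu4, a sialidase of the oligodendrocyte lineage, had 0 counts in CAG-GFP Sham and was at 21.4 to 294 CPM in CAG-GFP Pilo, at least 3235-fold higher against 3 counts over the group. It stood at 69.6 to 192 CPM in DREADD Sham and 4.24 to 485 in DREADD Pilo, which overlapped. Mmp2, a gelatinase that degrades matrix collagens, was likewise at least 570.25-fold higher in CAG-GFP Pilo than the 0 counts of CAG-GFP Sham, and Sgsm1, a regulator of small GTPases, at least 367-fold. Dusp26, a further dual-specificity phosphatase, had 1 count in CAG-GFP Sham and a CAG-GFP Pilo to Sham ratio of 5879.5 (95% exact counting interval 1055 to 232230), which covers counting error only. In DREADD cells the seizure differences of the 4 genes were 0.57 for Neu4, 0.49 for Mmp2, -1.92 for Sgsm1 and -0.52 for Dusp26.

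Rrm2 and Timp3 are the genes in the title of the series. Rrm2 encodes the small subunit of ribonucleotide reductase, which makes deoxynucleotides for DNA synthesis (chr12:24708241-24714146, plus strand, ENSMUSG00000020649.7). Rrm2 stood at 1.99, 4.64 and 6.66 CPM in CAG-GFP Sham, 22.4, 15.9, 17.3 and 99.8 in CAG-GFP Pilo, 10.1, 3.89, 106 and 389.5 in DREADD Sham and 76.6, 0 and 0.892 in DREADD Pilo. Seizure libraries were all above sham in CAG-GFP cells, while both DREADD groups held low and high libraries: the 2 highest DREADD Sham values were in set 2 and the 2 lowest in set 1. Its interaction was -5.43 ± 2.63 (edgeR adjusted p = 0.429, rank 2490 of 18676), and it ran from -11.31 to -3.76 as single libraries were left out, and was -6.79 ± 2.83 within sets. Timp3 encodes a matrix-bound inhibitor of metalloproteinases (chr10:86300372-86349506, plus strand, ENSMUSG00000020044.9). Timp3 stood at 179, 173 and 177 CPM in CAG-GFP Sham, 74, 28.8, 21.1 and 45.8 in CAG-GFP Pilo, 51, 56.1, 270 and 86 in DREADD Sham and 63.5, 406 and 656 in DREADD Pilo. Seizure libraries were all below sham in CAG-GFP cells, and in DREADD cells the groups overlapped with 2 high seizure libraries. Its interaction was 3.75 ± 1.08 (edgeR adjusted p = 0.323, rank 198) and 3.64 ± 1.26 within sets, and it was 3.11 without DREADD Pilo 3. DESeq2 gave Timp3 an adjusted p of 0.032 and Rrm2 0.167. Timp3 shares 1733 exonic bases with Syn3 on the other strand.

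Gene lists of pathways and cell types are described by the number of members in each direction and by their median interaction, beside -0.43 for all genes tested and 11.7% of all genes at an unadjusted p under 0.05. Of all 18676 genes tested, 8000 had a positive and 10676 a negative interaction, so the background of the direction counts was itself more often negative. No member of any of the 29 lists passed an adjusted p of 0.05 in edgeR. Members named below had an unadjusted p under 0.05 unless a role is the reason, a choice made after the values were seen. Counts are over the members with enough counts to be tested, which left out 3 of 10 interneuron markers, 3 of 9 blood markers and at most 2 members of any other list. Fitted values of genes empty or nearly empty in a group, such as Npas4, Birc5 and Cspg4 in CAG-GFP Sham, depend on the prior count and bound nothing.

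In the machinery through which hM4Di acts, 24 of 29 genes of Gi signalling and GIRK channels had a negative and 5 a positive interaction, with a median of -1.49. Relative to all genes the median was -1.06. Over the alternatives it ran from -1.67 to -0.55, the latter without CAG-GFP Pilo 4 and DREADD Pilo 3. The list summed to 501 CPM in DREADD Pilo 3 and to 1235 and 1507 in the other DREADD Pilo libraries. The 6 members at an unadjusted p under 0.05 (20.7%) were all negative. They were Gnb2, Gnb5 and Gng2, beta and gamma subunits of G proteins, the adenylyl cyclase Adcy1, the catalytic kinase subunit Prkacb, and Rgs4, which speeds the shut-off of Gi. Gnb2, with the smallest p of the list, had -2.14 ± 0.71, and -1.40 ± 0.73 within sets. Adcy1 averaged 5.18 CPM in CAG-GFP Sham, 152 CPM in CAG-GFP Pilo, 43.9 CPM in DREADD Sham and 10.8 CPM in DREADD Pilo, an interaction of -6.90 ± 2.69. The alpha subunits that receive the signal had interactions within 1 SE of 0, 0.25 ± 1.56 for Gnai1, 0.23 ± 0.71 for Gnai2 and -0.55 ± 0.92 for Gnao1. Of the GIRK channel subunits, Kcnj3 had -1.76 ± 2.32 and Kcnj6 -3.73 ± 3.66.

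Genes of neuronal identity leaned negative as groups. The neuroblast and immature neuron list had 22 of 23 negative with a median of -3.48, a median seizure difference of 1.88 in CAG-GFP cells and -1.85 in DREADD cells. It was led by Neurod1, a proneural transcription factor of granule neurons (chr2:79452521-79456751, minus strand). Neurod1 was at 0.576 to 0.938 CPM in CAG-GFP Sham, 2.66 to 166 in CAG-GFP Pilo, 63.1 to 284 in DREADD Sham and 0 to 28.2 in DREADD Pilo, with overlap in neither preparation, and its interaction was -9.77 ± 2.29 (edgeR adjusted p = 0.219). Its exons overlap Cerkl by 201 bases on the same strand. Sox11, a transcription factor of newborn neurons, had -4.82 ± 1.78, Dpysl3, a cytoskeletal protein of growing axons, -4.21 ± 1.56, and Stmn1, which destabilises microtubules, -2.89 ± 1.17. Dcx had -5.02 ± 2.94.

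The mature granule cell list had 23 of 25 negative with a median of -4.46, and 11 negative and 1 positive members at an unadjusted p under 0.05 (48%). Calb1, the calcium buffer calbindin, averaged 61.1 CPM in CAG-GFP Sham, 352 CPM in CAG-GFP Pilo, 173 CPM in DREADD Sham and 15.2 CPM in DREADD Pilo, an interaction of -6.03 ± 2.33. C1ql3, a synaptic organiser secreted by granule cells, had -5.20 ± 1.25, Ncdn, the neurite protein neurochondrin, -4.69 ± 1.26, and Camk2a, a kinase of the postsynaptic density, -4.86 ± 1.65. The exception was Btg2, an antiproliferative early-response gene, at 2.38 ± 0.98. Summed over the list, the level was 1672 to 2205 CPM in CAG-GFP Sham, 2986 to 8409 in CAG-GFP Pilo, 1226 to 4075 in DREADD Sham and 1067 to 1952 in DREADD Pilo. The highest of the CAG-GFP Pilo values was CAG-GFP Pilo 3, and within sets the list's median relative to all genes moved from -4.03 to -1.48.

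Synaptic and channel genes had the same lean. Synaptic vesicle and release genes were negative in 24 of 27 with a median of -2.84, including Rab3a, which prepares vesicles for fusion, at -3.61 ± 0.98. Vamp2, the vesicle SNARE, had -2.84 ± 0.84, and Slc17a7, the vesicular glutamate transporter, -7.00 ± 2.15. Voltage-gated and HCN channels were negative in 34 of 35 with a median of -2.89, among them the A-type potassium channel Kcnd2 at -4.98 ± 1.81. The channel list's median relative to all genes was -1.12 within sets and -1.52 without DREADD Sham 1 instead of -2.45, and 14.3% of its members had an unadjusted p under 0.05. The single positive member was Hcn3, a pacemaker channel at 2.12 to 2.2 CPM in CAG-GFP Sham, 0.0748 to 2.37 in CAG-GFP Pilo, 0 to 0.0649 in DREADD Sham and 1.78 to 6.98 in DREADD Pilo. Only 2 counts lay behind its DREADD Sham value, so the DREADD Pilo to Sham ratio of 297 had a 95% exact counting interval of 82.1 to 2449.8.

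Glutamate receptors were negative in 20 of 25 with a median of -3.30, or -2.66 with empty groups at their bound. Relative to all genes the median was -2.86, but -0.87 within sets and -1.75 without CAG-GFP Pilo 3, and 16% of the members had an unadjusted p under 0.05. Grin1, the obligatory NMDA receptor subunit, had -4.37 ± 2.03, and Grm5, a metabotropic receptor, -3.30 ± 1.37. GABA receptors and chloride transporters were negative in 17 of 20 with a median of -2.72. Gabrd, the extrasynaptic delta subunit typical of granule cells, had -8.72 ± 3.19. The chloride transporters Slc12a2, which imports chloride, and Slc12a5, which extrudes it, had -0.18 ± 0.95 and -2.71 ± 2.00. In DREADD Pilo 3 the synaptic vesicle genes summed to 240 CPM and the neuroblast genes to 34.1 CPM. Glutamate receptors summed to 45.1 CPM there, and each of these sums was the lowest of the 14 libraries. Without that library the medians relative to all genes were -1.83 for synaptic vesicle genes (from -2.41) and -2.29 for neuroblast genes (from -3.05). The interaction of Grm5 was then -2.71.

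Genes driven by neuronal activity did not lean one way at the early stage. Immediate early genes had 12 positive and 13 negative interactions of 25, with a median of -0.15. Arc, which regulates glutamate receptor uptake, had -8.61 ± 2.73, and Npas4, a neuron-specific transcription factor, -10.16 ± 3.99, whereas Fosb, an AP-1 subunit, had 2.78 ± 1.13. Fos, averaging 1069 CPM in CAG-GFP Sham, 583 CPM in CAG-GFP Pilo, 1252 CPM in DREADD Sham and 1162 CPM in DREADD Pilo, had 0.77 ± 0.95. Late activity-regulated genes were negative in 20 of 25 with a median of -2.09, and 8% had an unadjusted p under 0.05, below the 11.7% of all genes. Nrn1, the growth factor neuritin, had -3.11 ± 1.08, and Bdnf, the neurotrophin whose unadjusted p was 0.0672, had -4.83 ± 2.44 and averaged 13.9 CPM in CAG-GFP Sham, 111 CPM in CAG-GFP Pilo, 52.1 CPM in DREADD Sham and 14.6 CPM in DREADD Pilo. Within sets the late list's median relative to all genes was -0.55 instead of -1.65, and without DREADD Pilo 3 it was -0.92.

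Neural stem cell genes leaned the other way. Of the 25 genes tested 21 had a positive interaction, the median was 2.65, and 9 positive and 3 negative members had an unadjusted p under 0.05 (48%). Id2, an inhibitor of proneural factors (chr12:25093799-25097140, minus strand), was at 3049 to 3571 CPM in CAG-GFP Sham, 338 to 994 in CAG-GFP Pilo, 220.4 to 507 in DREADD Sham and 444 to 513 in DREADD Pilo. Its interaction was 2.81 ± 0.69 (edgeR adjusted p = 0.233) and 3.02 with library set as a covariate, where the edgeR adjusted p was 0.0162. Fabp7, which carries fatty acids in radial glia, had 2.65 ± 0.73, Hopx, a marker of quiescent stem cells, 3.64 ± 1.36, and Hes1, a Notch effector, 5.36 ± 1.67. Negative members included the lysophosphatidic acid receptor Lpar1 at -6.24 ± 2.53 and the Notch effector Hes5 at -4.26 ± 1.80. Many genes of this list are also expressed by astrocytes, whose 14 markers were positive in 14 with a median of 2.64. The astrocyte transporters Slc1a2 for glutamate and Slc4a4 for bicarbonate had 3.00 ± 1.07 and 2.86 ± 0.89, and their DREADD seizure differences were -0.23 and -0.01.

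**Figure D4:**
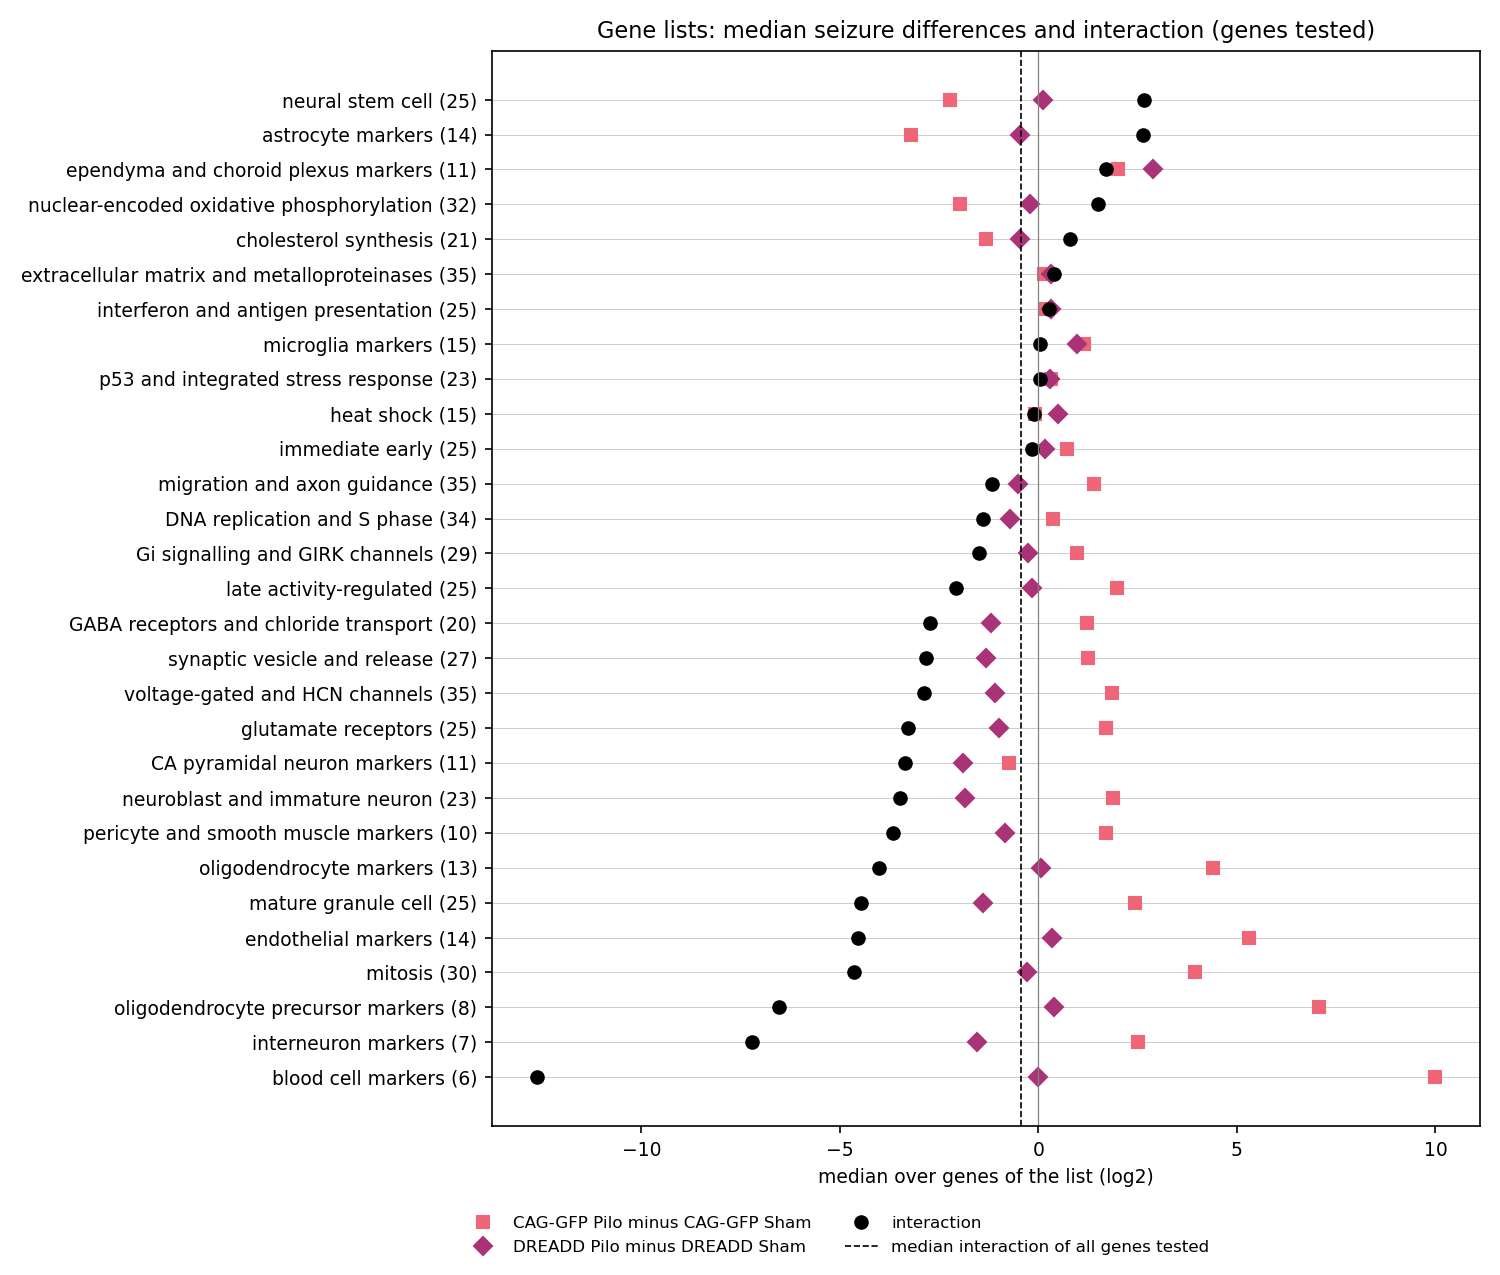
Median log2 value of each of the 29 gene lists for the interaction and for the seizure difference in CAG-GFP and DREADD cells, with a dashed line at the interaction median of all genes tested. Astrocyte and neural stem cell lists lie to the right of the line and neuronal, oligodendrocyte and vascular lists to the left, and most DREADD seizure medians lie closer to 0 than the CAG-GFP ones.

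Cell-cycle genes were mostly negative with few small p-values. DNA replication and S phase genes were negative in 29 of 34, with a median of -1.39 and 3 at an unadjusted p under 0.05 (8.82%). These were the replicative helicase subunits Mcm2 and Mcm6 and the thymidine kinase Tk1, and Mcm6 had -6.31 ± 2.16. Mitosis genes were negative in 27 of 30 with a median of -4.64, or -4.37 with empty groups at their bound, and 13.3% had an unadjusted p under 0.05. Relative to all genes the mitosis median of -4.21 became -1.08 with voom, -2.55 with library set as a covariate, -1.35 without DREADD Sham 4 and -6.21 without DREADD Pilo 1. Birc5, a subunit of the chromosomal passenger complex, averaged 0.0165 CPM in CAG-GFP Sham, 31.7 CPM in CAG-GFP Pilo, 23 CPM in DREADD Sham and 11.9 CPM in DREADD Pilo and had -11.44 ± 3.21. The mitosis genes summed to 75.1 to 86.5 CPM in CAG-GFP Sham, 83.1 to 605 in CAG-GFP Pilo, 56.1 to 1267 in DREADD Sham and 86.2 to 523 in DREADD Pilo, so their levels were low and overlapped in the DREADD groups.

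Migration and axon guidance genes were negative in 23 of 35 with a median of -1.17, and 11.4% had an unadjusted p under 0.05, close to the 11.7% of all genes. Within sets the median was 0.28, of the opposite sign, or -0.28 relative to all genes instead of -0.73. Apart from Ackr3, the members at an unadjusted p under 0.05 were the semaphorin co-receptor Plxna4 at -4.58 ± 1.62, the ephrin receptor Epha7 at -5.30 ± 1.96 and the guidance ligand Slit1 at -6.26 ± 2.73. Cxcr4, the signalling receptor for CXCL12, had 0.97 ± 3.15. Extracellular matrix genes were split, with 19 positive and 16 negative of 35. The positive side held, beside Timp3, the matricellular proteins Sparc and Sparcl1 at 1.99 ± 0.82 and 2.81 ± 0.86 and the chondroitin sulphate proteoglycans Bcan and Ncan at 2.39 ± 0.88 and 2.64 ± 1.15, genes that astrocytes express strongly. Among the other metalloproteinase inhibitors Timp2 had 1.23 ± 0.82 and Timp4 2.20 ± 1.10.

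Genes of oxidative phosphorylation leaned positive. Nuclear-encoded subunits of oxidative phosphorylation were positive in 24 of 32 with a median of 1.5, and all 9 members at an unadjusted p under 0.05 (28.1%) were positive. Ndufa2, a subunit of complex I, was at 961 to 1362 CPM in CAG-GFP Sham, 212 to 246 in CAG-GFP Pilo, 61.1 to 174 in DREADD Sham and 72.7 to 891 in DREADD Pilo, an interaction of 3.92 ± 1.0. The highest DREADD Pilo value was DREADD Pilo 3, and without it Ndufa2 had 2.09 and the list's median relative to all genes moved from 1.93 to 0.81. Cholesterol synthesis genes were positive in 14 of 21 with a median of 0.80. The 1 member at an unadjusted p under 0.05 (4.76%, below the 11.7% of all genes) was Msmo1, a sterol demethylation enzyme, at 1.92 ± 0.60.

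Several lists of other cell types also had medians far from that of all genes. All 13 oligodendrocyte markers tested were negative with a median of -4.01, 10 of them at an unadjusted p under 0.05 (76.9%). They summed to 642 to 764 CPM in CAG-GFP Sham, 1510.1 to 38450 in CAG-GFP Pilo, 20875 to 41032 in DREADD Sham and 555 to 44825 in DREADD Pilo. Mbp, the myelin basic protein, was at 47.7 to 60.8 CPM in CAG-GFP Sham and at 258 to 16394, 4645 to 19823 and 156 to 8803 in the seizure group of the same cells and the DREADD groups without and with seizures. All 8 precursor markers tested were negative with a median of -6.52, which relative to all genes moved from -6.09 to -10.04 without CAG-GFP Sham 3. Cspg4, the proteoglycan NG2, was empty in CAG-GFP Sham, and Sox10, a transcription factor of the lineage, had -9.68 ± 2.46. Endothelial markers were negative in 13 of 14 with 1 at an unadjusted p under 0.05 (7.14%, below the 11.7% of all genes). Blood markers were negative in 5 of 6, all 5 at an unadjusted p under 0.05 (83.3%), and their median of -12.63, or -10.45 with empty groups at their bound, lay farthest from 0 of the 29 lists. They summed to 12 to 36.8 CPM in CAG-GFP Sham, 59.8 to 18370 in CAG-GFP Pilo, 4.67 to 6966 in DREADD Sham and 165 to 6614 in DREADD Pilo. The highest value was CAG-GFP Pilo 4, without which the blood median relative to all genes was -3.97 instead of -12.20. Interneuron markers were negative in 7 of 7, of which Gad1, an enzyme of GABA synthesis, had -7.44 ± 2.92. Microglia markers had 8 positive and 7 negative members, a median of 0.05 and none at an unadjusted p under 0.05. Their sums were 5529.6 to 5864 CPM in CAG-GFP Sham, 6706 to 12744 in CAG-GFP Pilo, 832 to 13172 in DREADD Sham and 235 to 34632 in DREADD Pilo, where DREADD Pilo 3 was lowest and DREADD Pilo 1 highest of the 14 libraries. Ependymal and choroid plexus markers were positive in 9 of 11 with a median of 1.71, but they summed to 157550 CPM in DREADD Pilo 3, and without that library their median relative to all genes was -4.13 instead of 2.15. The share of these cells in the interaction of neuronal and stem cell genes was not tested.

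**Figure D5:**
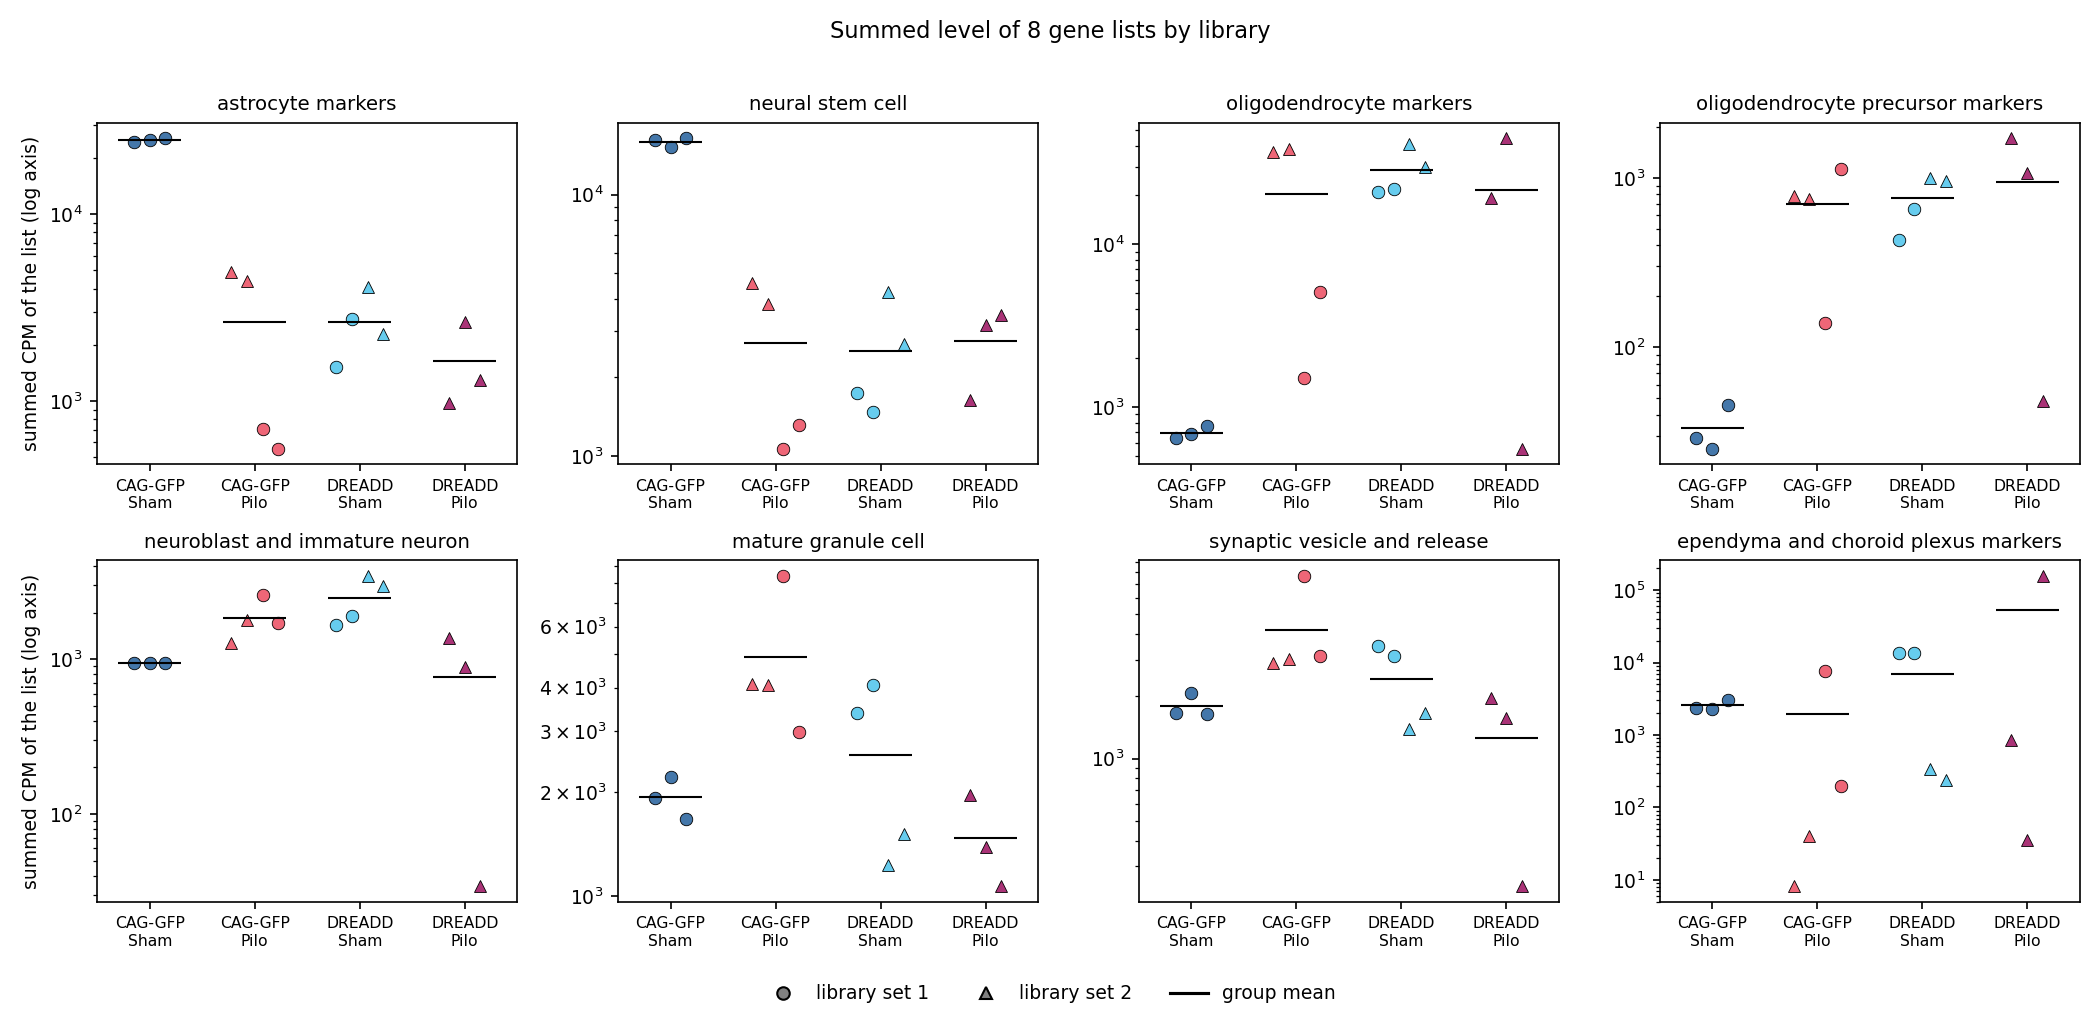
Summed level of 8 gene lists in each of the 14 libraries, in CPM on a log axis, with circles for library set 1 and triangles for set 2. The astrocyte sum of the CAG-GFP Sham libraries lies above the other 11, their oligodendrocyte sum is near the bottom, and DREADD Pilo 3 has the highest ependymal and the lowest neuroblast sum.

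A stricter description kept only genes whose seizure and sham libraries did not overlap in either preparation and differed in opposite directions. There were 133 such genes (0.712%), 75 lower in CAG-GFP Pilo and higher in DREADD Pilo and 58 the reverse, against 19 higher and 63 lower with seizures in both. Of all genes tested, 18.8% had no overlap in CAG-GFP cells and 6.61% had none in DREADD cells. Whether 133 is more than unrelated differences in the 2 preparations would give was not tested, so the genes below are a description. Genes are named here in order of their p, a choice made after the values were seen. Beside Cst3, those lower with seizures in CAG-GFP cells and higher in DREADD cells included Atp6v0e, a subunit of the vacuolar proton pump, with log2 seizure differences of -1.94 in CAG-GFP cells and 1.74 in DREADD cells, and Vamp8, a SNARE of endosomes and lysosomes, with -1.47 in CAG-GFP cells and 2.96 in DREADD cells. Akr1b10, an aldo-keto reductase, had -2.51 in CAG-GFP cells and 1.22 in DREADD cells. The small GTPase Rac1, which organises actin, had -1.17 in CAG-GFP cells and 1.43 in DREADD cells, and Tmem106b, a lysosomal membrane protein, -1.45 in CAG-GFP cells and 1.53 in DREADD cells.

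Those higher with seizures in CAG-GFP cells and lower in DREADD cells included, beside Rnf227, Dbn1 and Neurod1, the following. Tpm1, a tropomyosin of actin filaments, had 2.10 in CAG-GFP cells and -1.67 in DREADD cells. The transcription factors Nfix and Zbtb18, both needed in hippocampal neuron development, had 1.5 in CAG-GFP cells and -1.80 in DREADD cells and 2.70 in CAG-GFP cells and -1.57 in DREADD cells. Celf4, a neuronal RNA-binding protein, had 1.51 in CAG-GFP cells and -2.10 in DREADD cells, and Nsg1, an endosomal protein of neurons, 1.68 in CAG-GFP cells and -1.88 in DREADD cells. For the 133 genes the interaction had edgeR adjusted p-values of 0.194 or more.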

How the data were processed

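Gene counts were analysed from 14 SMART-Seq v4 libraries of sorted mouse hippocampal cells. The authors deposited 1 table of raw counts per gene, as its whole-number values show, with 43346 mouse Ensembl identifiers. The submitters' processing notes list hg38 as the build, which does not match mouse identifiers, and name Bowtie2, Subread, featureCounts, edgeR and R 4.1.1. The annotation release and strand setting are not stated there. Symbols and positions came from GENCODE M21 on GRCm38 and matched 42462 identifiers (98%). The match ignored the version at the end of an identifier, and 23106 of those matched (54.4%) had the same version in M21. Positions and exon overlaps are those of M21, while the printed identifiers carry the version of the count table. Libraries were grouped by title. The test was that of edgeR 4.0.16, run in R 4.3.3 (TMM factors, filterByExpr, quasi-likelihood F-test, 1 mean per group, all 14 libraries in 1 fit) with Benjamini-Hochberg adjustment over 18676 genes and a threshold of 0.05. The standard error of an interaction is its size divided by the square root of F. The biological coefficient of variation was 1.47, and every pair of replicate libraries differed by more than sampling noise. Floors of 3 counts over a group and 95% exact intervals leave out every error but counting, as the reads carry no molecular identifiers. Tested on simulated counts with the fitted dispersions, the contrast called 0 of 100 genes changed by 3 and 9 of 100 changed by 6 on the log2 scale (17268 genes tested), and with dispersions scaled by 0.1 it called 86 and 95 (18219 genes tested).

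Named genes were the 12 positive and 12 negative genes of smallest interaction p with a plain symbol, a mean of at least 5 CPM in a group, at least 1 CPM in 6 libraries and more than 3 counts in each group, then 4 genes that met all but the last condition, Rrm2 and Timp3, and the member of smallest p in each of 29 gene lists. A few genes that the rule or the lists would name are not reported here. The genes, lists and rule were chosen with earlier results of these data known. Alternatives were other scalings and filters, DESeq2 1.42.0, voom of limma 3.58.1, a replicate block, library set as a covariate, within-set differences and leaving out each library. CAG-GFP Sham summed to 1 sample, and leaving out CAG-GFP Pilo 4 with DREADD Pilo 3, were added after seeing the data.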

Additional observations from a re-analysis of the deposited data

Results flagged for a closer look

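Of the 56 genes named by the fixed rule, 4 had seizure libraries entirely on one side of sham in CAG-GFP cells and entirely on the other side in DREADD cells. Their interactions, which test that difference, were 4.24 for Cst3 (edgeR adjusted p = 0.194), -5.23 for Rnf227 (edgeR adjusted p = 0.217), -4.31 for Dbn1 (edgeR adjusted p = 0.219) and -9.77 for Neurod1 (edgeR adjusted p = 0.219), so none passed the threshold.

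In the groups of 4 libraries, 6 of the 112 sets of values of named genes held 1 library far from the other 3, and chance gives about 1 in 20. Naaa was at 4.92 CPM in CAG-GFP Pilo 4 against 13.8 to 16.9 in the other CAG-GFP Pilo libraries, and Dbn1 was at 44.2 CPM there against 93.6 to 97.6. Ndufa2 was at 212 CPM in CAG-GFP Pilo 3 against 241 to 246. In DREADD Sham 2, Ifitm2 was at 21 CPM against 35.7 to 38.4, Gnb2 at 209 CPM against 96.1 to 102, and Hcn3 at 0.0649 CPM, or 2 counts, against 0 in the other DREADD Sham libraries.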

How the results depend on the processing

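The count of genes past an adjusted p of 0.05, 0 in edgeR (2191 at an unadjusted p under 0.05), was 1569 with DESeq2, 185 with voom, 3 without a filter on low counts, 11 with library set as a covariate and 4 within sets. It was 0 to 1 as each library was left out, and 0 under the remaining alternatives. Genes at an unadjusted p under 0.05 numbered 3437 with DESeq2 and 663 with CAG-GFP Sham summed into 1 sample. The replicate block gave 0 genes past the threshold and 998 at an unadjusted p under 0.05. The pairing check gave correlations of -0.381 to 0.115 between deviations of same-numbered libraries, with 1 of 19 over 0.1, so the numbers were not taken as pairs. None of the 56 genes named by rule changed sign in the 27 alternatives, except that Hcn3 could be fitted in only 26 of them. Most of these genes were chosen for a small p in the same contrast, and the alternatives reuse the same libraries. A kept sign was therefore likely beforehand and is no evidence of stability. Some list medians did change sign. In 26 alternatives the median kept its sign in 13 for p53 and stress genes, 15 for immediate early genes, 19 for heat shock genes, 20 for microglia markers, 24 each for interferon genes and ependymal markers, and 25 each for late activity-regulated genes, migration genes and CA pyramidal markers. The other 20 lists kept theirs. Counting each list, and all genes tested, once per alternative, 42 medians moved by more than the spread between the replicate values and 738 did not. The cause of the spread between tools was not tested.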

Other observations

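Interferon and antigen presentation genes had 15 positive and 10 negative interactions and a median of 0.26. At an unadjusted p under 0.05 were 8% of the members, below the 11.7% of all genes. They were Ifitm3, an antiviral membrane protein, at 3.04 ± 1.02, and B2m, the light chain of class I molecules, at 2.55 ± 0.96. Genes of p53 and the integrated stress response had 12 positive and 11 negative interactions, with Slc7a11, the cystine transporter, at 3.09 ± 1.28 and Ddit3, the stress factor CHOP, at 2.60 ± 1.10. Of this list 8.7% had an unadjusted p under 0.05, again below the share of all genes. Heat shock genes had 6 positive and 9 negative, with the mitochondrial co-chaperone Hspe1 at 3.04 ± 1.02. Their share at an unadjusted p under 0.05 was 6.67%, also below that of all genes. CA pyramidal markers were negative in 8 of 11 with a median of -3.36 and 18.2% at an unadjusted p under 0.05, and relative to all genes their median moved from -2.92 to -0.43 within library sets and to -1.24 without DREADD Sham 1. Pericyte and smooth muscle markers were negative in 8 of 10 with a median of -3.67, and 4 of them (40%, against 11.7% of all genes) had an unadjusted p under 0.05. Their median relative to all genes was -3.24, but -1.55 with voom and -5.21 without DREADD Sham 1. The contractile genes Acta2 and Tagln had -7.17 ± 2.86 and -5.21 ± 1.65, and Acta2 averaged 135 CPM in DREADD Sham and 4.26 in DREADD Pilo, against 2.42 and 11.0 in CAG-GFP cells without and with seizures.

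With library set as a covariate the 11 genes that passed the threshold were 10 positive and 1 negative. Beside Cst3, Scg3, Id2 and Dusp26 they included Rpl24, a ribosomal protein, at 4.80 ± 0.50 (edgeR adjusted p = 0.0048), Sec61g, a subunit of the protein translocation channel, at 8.14 ± 1.02, and Pttg1, the separase inhibitor securin, at 4.21 ± 0.59. Pantr1, a long noncoding RNA, had 3.54 ± 0.46. These genes were named after their values were seen. Of the 11, 7 had an unadjusted p under 0.05 without the covariate, and Sec61g was also among the 4 genes called within sets.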
